A study of Procambarus clarkii with 12 samples.

Results

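Gene expression in the hepatopancreas of male red swamp crayfish (*Procambarus clarkii*) kept in water with 10 mg/L cadmium was compared with that of control males kept without cadmium, both for 72 h. The members are the 3 libraries titled for the 10 mg/L dose and the 3 titled as controls, which makes 6 of the 12 libraries of the series. The other 6 libraries came from males given 2 or 5 mg/L cadmium for the same time and are used for comparison. All animals were crayfish of 1 sex and 1 tissue, and the labels name no strain, age or further treatment. Whether each library stands for 1 animal or a pool of animals is not said, so the spread that p-values are measured against is that between these samples and may be technical.

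The hepatopancreas is the digestive gland of decapod crustaceans. Its tubules secrete digestive enzymes, take up and store nutrients, and hold much of the metal an animal takes in. Cadmium is a nonessential metal that binds thiol groups, for example those of glutathione and of metallothionein, a small cysteine-rich protein that sequesters metals, and it is known to bring about oxidative stress in animal tissues. The deposited tables list gene clusters (assembled sequences grouped as 1 putative gene) without a gene name, and no sequence of a cluster was used here. The genes of these pathways could therefore not be looked up, and the labelled tissue could not be checked against marker genes. In RNA from whole tissue, fewer cells of a type and less RNA per cell cannot be told apart.

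Each library listed 176325 clusters, of which 57151 with enough counts were tested. Total estimated counts were 16083833, 16339501 and 16880989 at 10 mg/L, against 21160462, 20548772 and 19490723 in the controls, so every 10 mg/L library was shallower than every control (two-sided exact permutation p = 0.1, the smallest that 3 libraries against 3 can give). Depth and dose therefore cannot be told apart in these totals, and counts thinned to 15835655 per library are given below where depth could matter. At least 1 count was found for 97570, 102145 and 84435 clusters at 10 mg/L and for 106924, 97218 and 98269 in the controls (exact permutation p = 0.5, and 0.8 after thinning). The 1000 most abundant clusters of each library held 66.1%, 66.6% and 77.1% of its counts at 10 mg/L, against 70.6%, 75.9% and 74.2% in the controls (exact permutation p = 0.4). In both measures the third 10 mg/L library lay apart from the other 10 mg/L libraries, with the fewest clusters and the highest share in its top 1000. Results that rest on that library are therefore given with and without it.

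Of the 57151 clusters tested, 4 changed at 10 mg/L, which is 0.007% of them (edgeR quasi-likelihood test, Benjamini-Hochberg adjusted p under 0.05). In this test 1 cluster rose (0.00175%) and 3 fell (0.00525%), and each was without a count in all 3 libraries of 1 of the groups. Unadjusted p was under 0.05 for 6487 clusters (11.4%), 3218 with higher (5.63%) and 3269 with lower (5.72%) levels at 10 mg/L. The called clusters were of middling abundance, 2 with a mean of 1 to 10 and 2 with a mean of 10 to 100 CPM (counts per 1e+06, scaled by library size and a TMM factor). All 4 lay among clusters with sequences over 1733 bases, the longest of 3 equal groups by length. Lengths here and below are effective lengths implied by the deposited counts and FPKM (a count scaled for sequence length and depth), not read from a sequence.

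The cluster that rose was Cluster-27942.52731. It had 41.2, 28.9 and 14.0 CPM in the 10 mg/L libraries (28.0 ± 13.6, SD, n = 3) and 0 counts in all 3 controls. All libraries at 10 mg/L thus lay above all controls, with replicate 3 the lowest of the treated libraries. With the controls set at a floor of 3 counts over their group, it was at least 546-fold higher (edgeR adjusted p = 0.0265; adjusted p = 0.0127 to 0.113 over the 12 fits that each left out 1 library, with a call in 1 of them). At 2 mg/L it had 18.0, 12.6 and 11.8 CPM, and with 5 mg/L 8.12, 4.01 and 3.64 CPM, so it was present in every cadmium library and its levels did not follow the order of the doses. Its implied length was 2890 bases.

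Among the clusters that fell, Cluster-27942.86978 was the most abundant. It had 0 counts in all 3 libraries at 10 mg/L, against 31.1, 34.7 and 18.7 CPM in the controls (28.2 ± 8.41, SD, n = 3), and was at least 463-fold lower (edgeR adjusted p = 0.0376; 0.0157 to 0.139 with 1 library left out in turn, with a call in 1 of 12 fits). It had 74.1, 78.4 and 18.8 CPM at 2 mg/L, and 24.1, 31.5 and 53.9 CPM with 5 mg/L, so the 10 mg/L libraries were the ones without it. Its implied length was 10099 bases. The other 2 clusters that fell, described without identifier, were likewise at 0 counts in all 10 mg/L libraries and present in all 9 others. In the controls 1 of them had 9.60, 18.0 and 7.32 CPM (11.6 ± 5.60, SD, n = 3) and at 10 mg/L it was lower by at least 191-fold. The other had 5.61, 6.55 and 11.7 CPM in the controls (7.96 ± 3.29, SD, n = 3) and was at least 131-fold lower (edgeR adjusted p = 0.0265 for both). In those clusters too the groups did not overlap. Estimated counts divide reads among similar sequences, so the values of clusters that share reads are uncertain.

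The number of calls depended on which libraries were fitted. Without 10 mg/L replicate 3 there were 247 calls among 69180 clusters tested (0.357%), and without any 1 of the other 11 libraries there were 0, with 5287 to 7776 clusters at an unadjusted p under 0.05. Those fits also tested more clusters, since the filter on low counts was applied anew. With the 6 libraries alone edgeR called 0 of 40225 clusters (3527 at an unadjusted p under 0.05), while DESeq2 on all 12 libraries called 3241, the 4 clusters above among them.

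Cluster-27942.66503 and Cluster-27942.97015 had the widest gaps between the groups among clusters averaging 100 CPM or more with counts in all 6 libraries, and neither passed the test. Cluster-27942.66503 had 457, 1854 and 2099 CPM at 10 mg/L, against 5.26, 1.81 and 0.788 CPM in the controls. Its lowest 10 mg/L library was 87.0 times its highest control, and the log2 fold change was 9.13 with standard error 3.21 (edgeR adjusted p = 0.378; 0.283 to 0.624 with 1 library left out in turn). Its implied length was only 35.5 bases, far shorter than those of the called clusters. The lower doses did not form groups for this cluster. It had 1.07, 0.551 and 1214 CPM at 2 mg/L and 1774, 2.49 and 1956 CPM with 5 mg/L, so libraries of 1 dose lay either near the controls or near the 10 mg/L level.

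Cluster-27942.97015 had 4.87, 2.93 and 52.4 CPM at 10 mg/L, against 2529, 582 and 294 CPM in the controls. The groups did not overlap, with the lowest control 5.62 times the highest 10 mg/L library, which was replicate 3. Its log2 fold change was -5.82 with standard error 2.67 (edgeR adjusted p = 0.448; 0.321 to 0.648 with 1 library left out in turn). Again single libraries of the lower doses lay at both ends, with 4121, 6.43 and 261 CPM at 2 mg/L and 796, 4702 and 1.31 CPM with 5 mg/L. These abundant clusters thus differed between libraries of 1 dose by as much as between 10 mg/L and the controls.

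**Figure D1:**
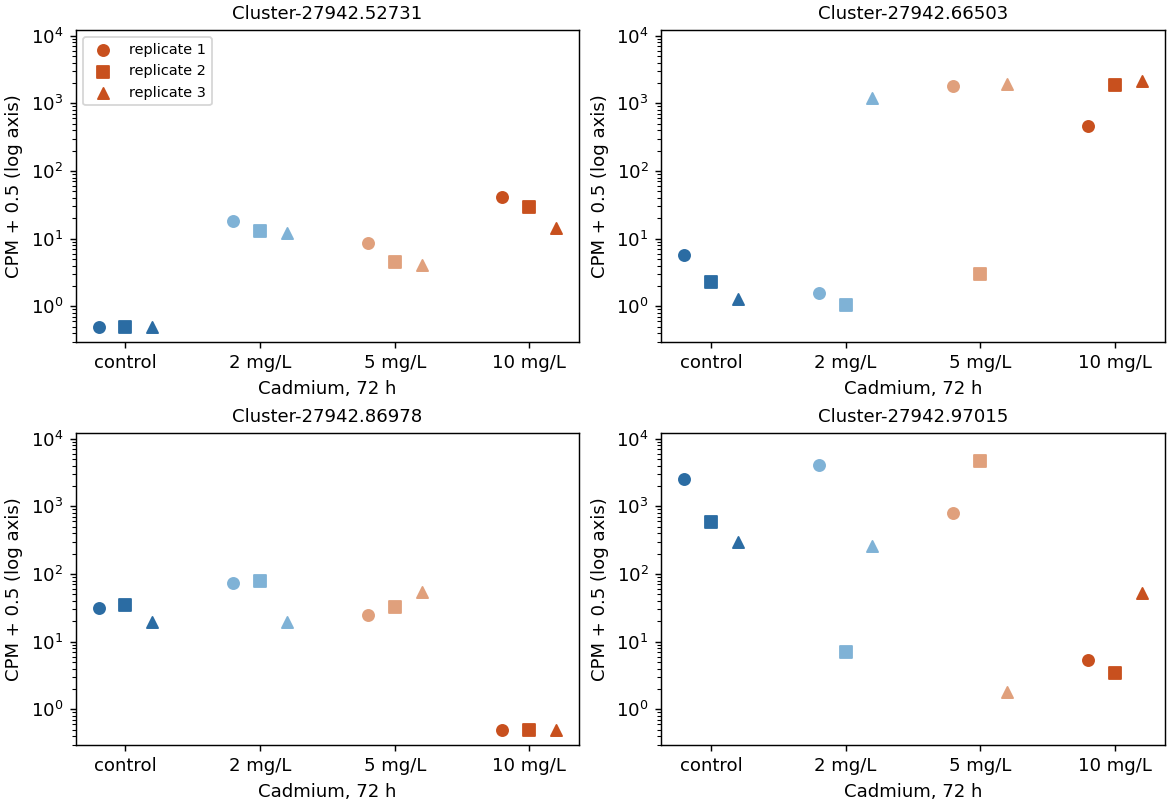
CPM + 0.5 (log axis) of 4 clusters in each of the 12 libraries, by cadmium dose after 72 h; each point is 1 library and its shape the replicate number. Cluster-27942.52731 is at 0 counts in the 3 controls and at 14.0 CPM or more at 10 mg/L, Cluster-27942.86978 is at 0 counts in the 3 libraries at 10 mg/L, and the other 2 clusters take high and low values within 2 and 5 mg/L.

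Effect sizes were then set out by abundance, with clusters sorted into classes by their mean CPM over the 6 libraries. The median size of the log2 fold change was 0.83 over all 57151 clusters (quartiles 0.36 and 1.75). It was 1.04 in the 25122 clusters under 1 CPM, 0.75 in the 24477 at 1 to 10 CPM and 0.59 in the 6334 at 10 to 100 CPM. It was 0.55 in the 1074 clusters at 100 to 1000 CPM and 0.58 in the 144 at 1000 CPM or more. With all 6 libraries, fold changes were thus widest among the rarest clusters and of like size in the 3 classes from 10 CPM upwards. Without 10 mg/L replicate 3 the medians were 1.26, 0.92, 0.73, 0.76 and 0.99 from the lowest class to the highest. The rarest class was still the widest, but the class at 1000 CPM or more was then no longer like those at 10 to 1000 CPM. A change of at least 2-fold in size, a log2 of 1, was fitted for 51.5% of clusters under 1 CPM, 39.3% at 1 to 10, 31.4% at 10 to 100, 29.5% at 100 to 1000 and 33.3% at 1000 CPM or more. At 4-fold or more these shares were 27.8%, 17.4%, 12.6%, 10.6% and 12.5% in the same order.

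Part of the wide spread in the rarest class came with clusters that had no counts in a whole group, whose fitted fold depends on the prior count. There were 4369 clusters with a group at 0, 2599 of them with 0 at 10 mg/L and 2004 with 0 in the controls. Some were thus at 0 in both groups, and their fitted fold is 0. Of the 4369, 3439 were under 1 CPM, 873 at 1 to 10, 56 at 10 to 100, 1 at 100 to 1000 and 0 at 1000 CPM or more. With their folds set at the bound against 3 counts over the group, the median size under 1 CPM was 1.03, and with those clusters left out it was 0.88, still the largest of the 5 classes. Any library at 0 was found in 65.0% of clusters under 1 CPM, 38.1% at 1 to 10, 16.6% at 10 to 100 and 4.47% at 100 to 1000 CPM. On the scale of log2(CPM + 0.5), on which low values are drawn together, the order changed. The median difference of the group means was then 0.44 under 1 CPM and 0.71 at 1000 CPM or more.

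The median signed log2 fold change over all clusters was 0.00 with TMM scaling, which centres the changes, 0.04 with DESeq2 size factors and 0.06 with library size alone. The class at 1000 CPM or more had a median of -0.21 and the class at 10 to 100 CPM one of 0.08. The spread of single clusters between libraries was set out beside the sizes of change. The median SD of log2(CPM + 0.5) between 10 mg/L libraries was 0.55, 0.74, 0.68, 0.67 and 0.77 in the classes from low to high, against 0.48, 0.53, 0.44, 0.49 and 0.58 between controls. The 10 mg/L libraries were the more variable group in 59.6% of clusters over all classes, and in 54.4%, 62.1%, 67.9%, 70.9% and 70.1% of clusters from the lowest class to the highest. These SDs include replicate 3 and were not taken without it. Over all clusters the median absolute log2 difference between 10 mg/L replicates 1 and 2 was 0.55, against 0.51 to 0.54 between controls. It was 0.64 against 0.54 to 0.57 at 1 to 10 CPM, but 0.48 against 0.54 to 0.80 at 1000 CPM or more. Pairs with replicate 3 differed by 0.77 and 0.73 over all clusters. On the scale of log2(CPM + 0.5) the median difference of the group means was 0.44, 0.62, 0.62, 0.58 and 0.71 from the lowest class to the highest. In each class it was thus smaller than the median SD between 10 mg/L libraries. The edgeR fold changes are on another scale and are not set against these SDs.

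**Figure D2:**
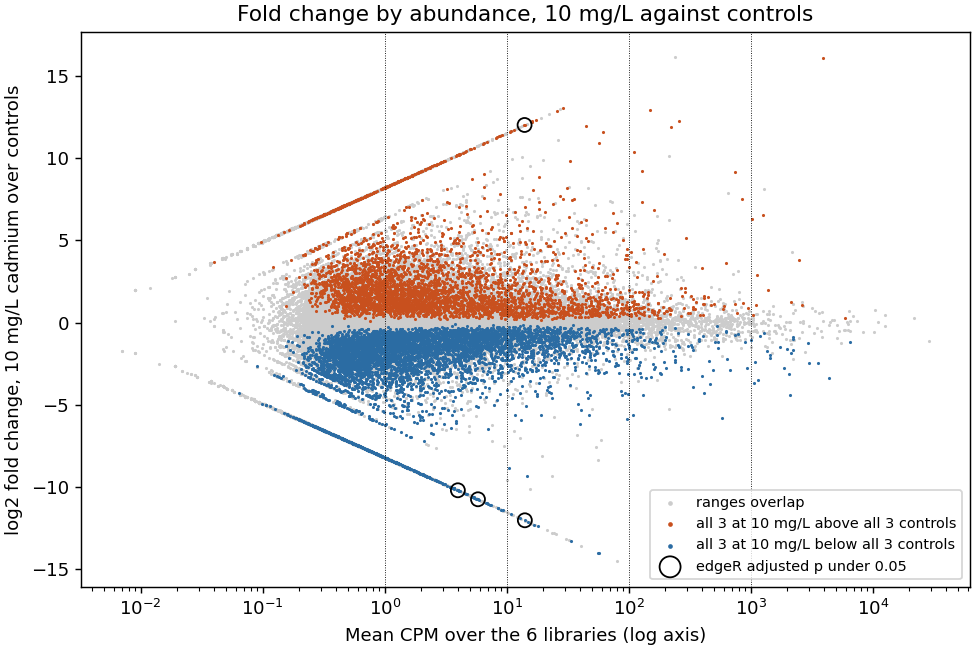
Log2 fold change of 10 mg/L over controls (edgeR, y axis) against the mean CPM over the 6 libraries (log x axis) for each of the 57151 clusters tested; dotted lines bound the abundance classes and circles mark the 4 clusters called. The straight outer edges are clusters with no counts in a whole group, where the fitted fold depends on the prior count, and the called clusters lie on these edges.

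Ranges of the groups did not overlap in 9623 clusters, 16.8% of those tested. All 3 libraries at 10 mg/L lay above all controls in 3914 clusters (6.85%) and below all controls in 5709 (9.99%). With counts thinned to the lowest total the numbers were 3884 and 5585, 9469 in all, so the count was about as large at equal depth. The number turned on single libraries, since a group of 2 is easier to separate: it was 20019 without 10 mg/L replicate 3 and 14969 without control replicate 3, and 13678 to 14177 without 1 of the other 4. At the lower doses, which share the control libraries, the groups did not overlap in 15.3% of clusters at 2 mg/L (4004 higher, 7.01%, and 4713 lower, 8.25%) and in 12.3% at 5 mg/L (3449 higher, 6.03%, and 3563 lower, 6.23%).

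By abundance class the share of clusters without overlap was 14.0% under 1 CPM, 18.2% at 1 to 10, 22.4% at 10 to 100, 20.4% at 100 to 1000 and 23.6% at 1000 CPM or more. Against the 16.8% over all clusters, the rarest class lay below and the other classes above. More clusters were lower than higher at 10 mg/L under 1 CPM (1246 higher, 2265 lower), at 1 to 10 CPM (1857 higher, 2586 lower) and at 1000 CPM or more (11 higher, 23 lower), with TMM scaling and with each of the other scalings tried. Without 10 mg/L replicate 3 this turned at 1 to 10 CPM (4668 higher, 4592 lower). It did not turn under 1 CPM (3402 higher, 3847 lower) or at 1000 CPM or more (14 higher, 54 lower). At 10 to 100 CPM 682 were higher and 734 lower, but DESeq2 size factors turned this to 759 higher and 668 lower. At 100 to 1000 CPM 118 were higher and 101 lower, and scaling by library size alone gave 113 and 122, so no direction can be given for those classes.

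Most of these separations were narrow. The nearest libraries of the groups were at least 2-fold apart in 2561 clusters, 4.48% of those tested (918 higher, 1.61%, and 1643 lower, 2.87%). The median gap among the higher clusters was 1.38-fold under 1 CPM, 1.31-fold at 1 to 10, 1.20-fold at 10 to 100, 1.18-fold at 100 to 1000 and 1.11-fold at 1000 CPM or more. Among the lower clusters it was 1.47-fold, 1.33-fold, 1.24-fold, 1.37-fold and 1.40-fold in the same order. Gaps of the higher clusters thus narrowed with abundance, while those of the lower clusters did not. No cluster at 100 CPM or more passed the test, and the smallest edgeR adjusted p among those without overlap there was 0.291.

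**Figure D3:**
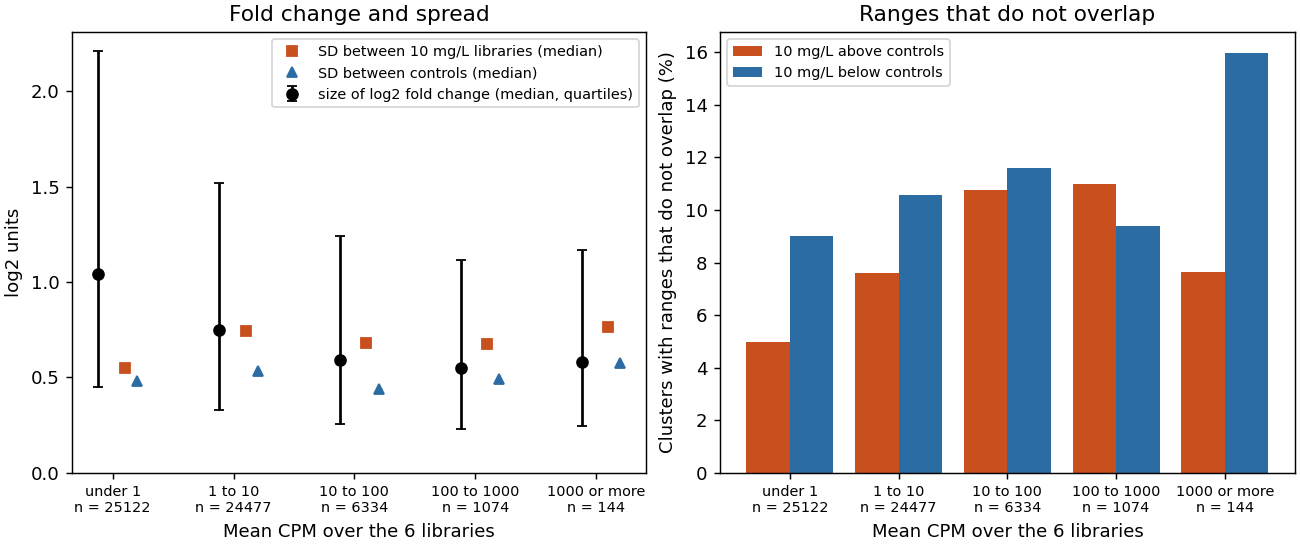
Left, median size of the log2 fold change with its quartiles (points and bars) and median SD of log2(CPM + 0.5) within each group (squares and triangles), in log2 units, by class of mean CPM; right, percent of clusters whose ranges do not overlap, by direction. The median fold change is 1.04 under 1 CPM and 0.58 at 1000 CPM or more. In each class the SD is larger between 10 mg/L libraries than between controls. It includes 10 mg/L replicate 3, which lay apart from the others, and was not taken without it. Fold changes are of the edgeR fit and SDs of log2(CPM + 0.5), so their heights are not on 1 scale. The direction shown on the right turns with DESeq2 size factors at 10 to 100 CPM and with library size alone at 100 to 1000 CPM. At 1 to 10 CPM it turns without 10 mg/L replicate 3.

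The clusters without overlap held a sizeable part of the RNA, described here without a test because they were selected by these same values. The 3914 higher clusters held 15.4%, 13.6% and 7.26% of counts at 10 mg/L, against 4.52%, 3.40% and 3.98% in the controls. The 5709 lower clusters held 5.15%, 5.32% and 4.73% at 10 mg/L, against 15.3%, 13.8% and 16.7% in the controls. In the higher clusters 10 mg/L replicate 3 lay nearer to the controls than the other 10 mg/L libraries, and in the lower clusters it lay with them. An implied length was at hand for 46373 of the clusters tested. Among these the share without overlap was about the same over length, 17.8%, 17.6% and 17.6% from the shortest group to the longest. By direction it was 8.35% higher and 9.46% lower in the shortest group, against 6.97% and 10.6% in the longest.

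At 1000 CPM or more the clusters without overlap can be described singly, and the next examples, without identifiers, were chosen after their values were seen. The widest separation downwards was a cluster of 1169 bases with 100.2, 85.1 and 375 CPM at 10 mg/L, against 1841, 2006 and 2419 CPM in the controls. Its log2 fold change was -3.48 with standard error 0.95, and its lowest control was 4.91 times its highest 10 mg/L library. A cluster of 1038 bases had 812, 1353 and 159 CPM at 10 mg/L, against 5971, 5441 and 12691 CPM in the controls, with a log2 fold change of -3.37 (standard error 0.92). In each of them the 10 mg/L libraries lay below the controls without passing the test (edgeR adjusted p = 0.320 for the second). A steady cluster of 1339 bases had 1078, 910 and 1030 CPM at 10 mg/L, against 1542, 1683 and 1491 CPM in the controls, a small difference with little spread in either group (log2 fold change -0.64, standard error 0.26).

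Upwards, a cluster of 2386 bases had 7261, 4924 and 1812 CPM at 10 mg/L, against 366, 254 and 389.6 CPM in the controls, with a log2 fold change of 3.79 (standard error 0.90). A cluster of 2074 bases had 2709, 2375 and 3886 CPM at 10 mg/L, against 1132, 1245 and 1373 CPM in the controls, with a log2 fold change of 1.26 (standard error 0.42). Here replicate 3 was the highest treated library, while in the cluster before it was the lowest. A cluster of 3277 bases showed the spread within the treated group: it had 16.3, 4.95 and 2772 CPM at 10 mg/L, against 4117, 3939 and 7104 CPM in the controls, so replicate 3 lay close to the controls although the groups did not overlap. Of the 10 most abundant clusters, none was without overlap. The most abundant of all had 7914, 16108 and 31526 CPM at 10 mg/L, against 41836, 60936 and 15886 CPM in the controls, with ranges that crossed.

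A change between presence and absence was counted for clusters with at least 10 counts in all libraries of 1 group and 0 in all of the other. There were 137 such clusters with counts at 10 mg/L alone and 308 with counts in the controls alone. These numbers are small beside the 57151 clusters tested, and a cluster can pass the low-count filter through the group with counts alone. Thinning to equal depth left 138 and 240, so counts in the controls alone were still the more frequent. At a minimum of 20 counts the numbers were 70 and 149, and after thinning 69 and 109. This direction turned when replicate 3 was left out, a count not made without replicate 1 or 2. The rule then also asked less of the treated group, with 2 libraries against 3. With 10 mg/L replicates 1 and 2 alone set against the controls, 1113 clusters had counts in those treated libraries alone and 681 in the controls alone, or 1151 and 545 after thinning. Of the 1113 clusters, 846 were at 0 in replicate 3.

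How far replicate 3 at 10 mg/L followed the other treated libraries was measured on clusters in which replicates 1 and 2 both lay beyond all controls on the same side. There were 20019 of these, 35.0% of clusters tested, 9806 above (17.2%) and 10213 below (17.9%). Replicate 3 lay beyond all controls on the same side in 9623 of the 20019, or 48.1%. This share is no measure of agreement by itself, because the same controls place the pair and replicate 3. It did so in 39.9% of the clusters where the pair was higher and in 55.9% of those where it was lower. It lay beyond the controls on the opposite side in 16.4%.

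The same measure was taken for the other treated libraries. Replicate 1 followed replicates 2 and 3 in 67.9% of the 14177 clusters in which that pair lay beyond the controls (24.8% of those tested). Replicate 2 followed replicates 1 and 3 in 70.4% of 13678 clusters (23.9%). Replicate 3 thus had the lowest of the 3 shares, each taken over another set of clusters. The clusters that follow are the same 9623 in each, so the shares differ only through the number of clusters of the pair. Libraries of the lower doses, set against the same controls and the same 20019 clusters, followed the 10 mg/L pair in 47.9%, 41.0% and 49.3% at 2 mg/L and in 41.8%, 54.0% and 48.0% at 5 mg/L. The 48.1% of replicate 3 lay within the range of those 6 libraries. All of these shares use the same control libraries and so are not independent of each other.

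Over all classes the shares differed by direction. Where the pair was higher, replicate 3 followed in 39.9%, against 46.3%, 36.3% and 44.0% for the 2 mg/L libraries and 39.7%, 53.1% and 45.6% for the 5 mg/L libraries. Where it was lower, replicate 3 followed in 55.9%, the highest share of the 7 libraries, against 49.5%, 45.6% and 54.4% at 2 mg/L and 43.9%, 54.9% and 50.4% with 5 mg/L. By class, though, 10 mg/L replicate 3 had the highest share of lower clusters only under 1 CPM. At 1 to 10 CPM 5 mg/L replicate 2 followed in 59.5% of them. At 100 to 1000 CPM only 5 mg/L replicate 1, with 34.2%, lay below 10 mg/L replicate 3. By abundance replicate 3 followed in 48.4% under 1 CPM, 48.0% at 1 to 10, 48.2% at 10 to 100 and 43.2% at 100 to 1000 CPM. The difference by direction turned with abundance. Replicate 3 followed in 36.6% of higher and 58.9% of lower clusters under 1 CPM, 39.8% and 56.3% at 1 to 10 CPM and 45.5% and 51.1% at 10 to 100 CPM, but in 52.9% of higher and 35.6% of lower clusters at 100 to 1000 CPM. At 1000 CPM or more it followed in 34 of 68 clusters, 11 of 14 that were higher and 23 of 54 that were lower in the pair.

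**Figure D4:**
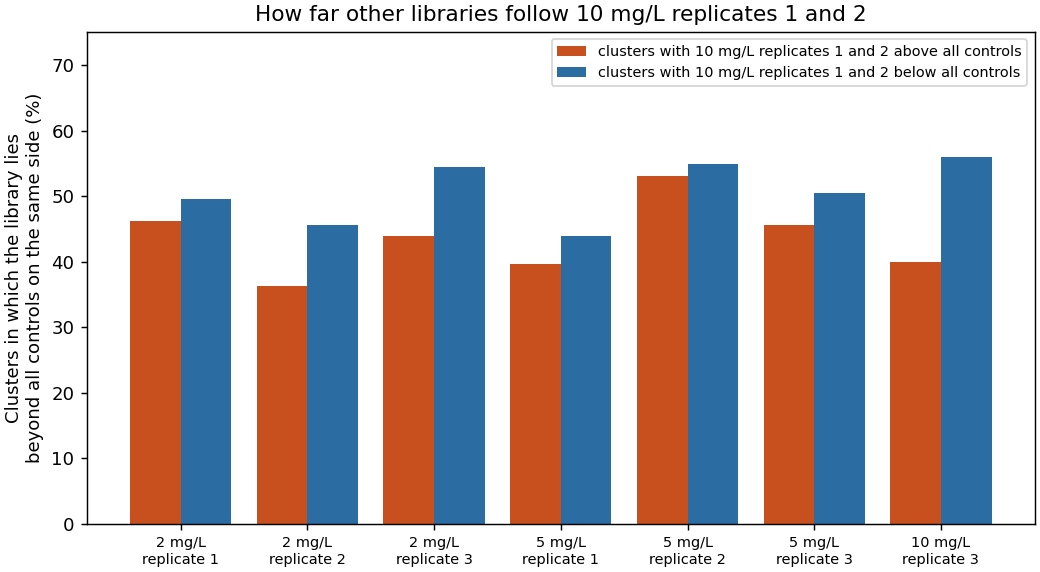
Percent of clusters (y axis) in which a library lies beyond all 3 controls on the same side as 10 mg/L replicates 1 and 2, for the 9806 clusters in which that pair is above and the 10213 in which it is below all controls. 10 mg/L replicate 3, at 39.9% and 55.9%, lies within the range of the 2 and 5 mg/L libraries for the higher clusters and above it for the lower ones. By abundance class it lies above that range for the lower clusters only under 1 CPM.

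The place of replicate 3 between the controls and the pair was also read off. Among the 9806 higher clusters it lay beyond the pair in 10.4%, within the range of the pair in 9.74%, between the pair and the controls in 19.8%, within the controls in 42.1% and on the far side of them in 18.0%. Its median shift from the control mean was 10.5% of the shift of the pair on a log2 scale. Among the 10213 lower clusters these shares were 11.9%, 21.0%, 23.0%, 29.2% and 14.9%, with a median shift of 41.7%. Over all classes replicate 3 thus stood closer to the pair in clusters that were lower, a direction carried by the clusters under 100 CPM, which are by far the most numerous.

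Distances between libraries showed the same library apart. The median absolute log2 difference between 10 mg/L replicates 1 and 2 was 0.55, while replicate 3 differed by 0.77 from replicate 1 and by 0.73 from replicate 2. Between controls it was 0.51, 0.54 and 0.54. Against the controls replicate 3 differed by 0.63 on average, less than from either library of its own dose, while replicates 1 and 2 differed from the controls by 0.77 and 0.76. In the clusters at 1000 CPM or more the distance was 0.48 between replicates 1 and 2, and 1.36 and 1.08 between these and replicate 3, against 0.54, 0.80 and 0.60 between controls.

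Spearman correlations between libraries across clusters are given as a description, since clusters are not independent of each other. At 100 to 1000 CPM rho over 1074 clusters was 0.698 between 10 mg/L replicates 1 and 2, 0.292 between 1 and 3 and 0.454 between 2 and 3, while replicate 3 had a mean of 0.644 with the 5 mg/L libraries and 0.594 with the controls. At 1000 CPM or more, over 144 clusters, these values were 0.781, 0.447 and 0.539, with 0.703 for the 5 mg/L libraries and 0.535 for the controls.

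Replicate 3 was at least 4-fold below both other 10 mg/L libraries in 2651 clusters, 4.64% of those tested. In the other 11 libraries, each set against the other members of its group, this share was 1.81% to 2.55%. Over all classes it was at least 4-fold above both in 2.83%, within the 2.01% to 2.87% of the others. At 10 to 100 CPM, though, it was so in 4.01% of clusters, against at most 2.97% in any other library. At 100 to 1000 CPM it was so in 4.28%, against at most 2.98%. In 3356 clusters it had 0 counts where the other 10 mg/L libraries had at least 10 each, against 1732 to 2607 clusters in the other libraries. The library thus stood apart more by what was low in it than by what was high, except at 1000 CPM or more, where it was 4-fold above the others in 12 and below in 10 of 144 clusters, against 0 to 4 in any other library.

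When 10 mg/L replicate 3 was left out of the fit, 247 of 69180 clusters were called by edgeR (0.357%), 167 that rose (0.241%) and 80 that fell (0.116%), the 4 clusters of the full comparison among them. Their median log2 fold change was 4.24 for those that rose and -8.10 for those that fell. Of those that rose 9 were without counts in all controls, and of those that fell 56 were without counts in both 10 mg/L libraries. They were mostly of middling abundance: 96 of the 167 lay at 10 to 100 CPM and 50 of the 80 at 1 to 10 CPM. The number rested on the controls as well, since leaving out control replicate 1, 2 or 3 in addition gave 33, 3 and 0 calls, of which 25, 0 and 0 were among the 247. With the 5 libraries of the comparison alone it was 0 (8962 at an unadjusted p under 0.05), while DESeq2 called 6472 and limma-voom 3197.

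Replicate 3 took no part in choosing these clusters, so its levels in them are a separate reading. Replicates 1 and 2 did take part, so their shift from the controls may be overstated. Shares of that shift, for clusters that rose or fell, are therefore no measure of agreement by themselves. The 167 clusters that rose had a median of 60.4, 67.3 and 4.30 CPM in 10 mg/L replicates 1, 2 and 3, against 3.48, 2.99 and 3.21 CPM in the controls. Replicate 3 lay above all controls in 71 of the 167, within the controls in 62 and below them in 34, and in 0 of them did it reach the range of the other treated libraries. Its median shift was 4.51% of theirs. The same clusters had a median of 7.61, 6.49 and 7.04 CPM at 2 mg/L and 4.98, 6.99 and 5.66 CPM with 5 mg/L, where 127, 87 and 120 and 85, 96 and 97 clusters lay above all controls. For clusters raised in replicates 1 and 2, replicate 3 was thus under the median level of each library given a lower dose, though those 6 libraries were part of the fit that chose the clusters.

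The 80 clusters that fell had medians of 0, 0 and 1.93 CPM in 10 mg/L replicates 1, 2 and 3, against 4.50, 4.86 and 3.83 CPM in the controls. Replicate 3 lay below all controls in 50 of the 80, more than in any library at 2 mg/L (35, 30 and 33) or at 5 mg/L (30, 31 and 25). Replicates 1, 2 and 3 were at 0 counts in 56, 57 and 12 of the 80, and the median shift of replicate 3 was 27.3% of that of the pair. Replicate 3 thus lay between the other 10 mg/L libraries and the controls in its median level.

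**Figure D5:**
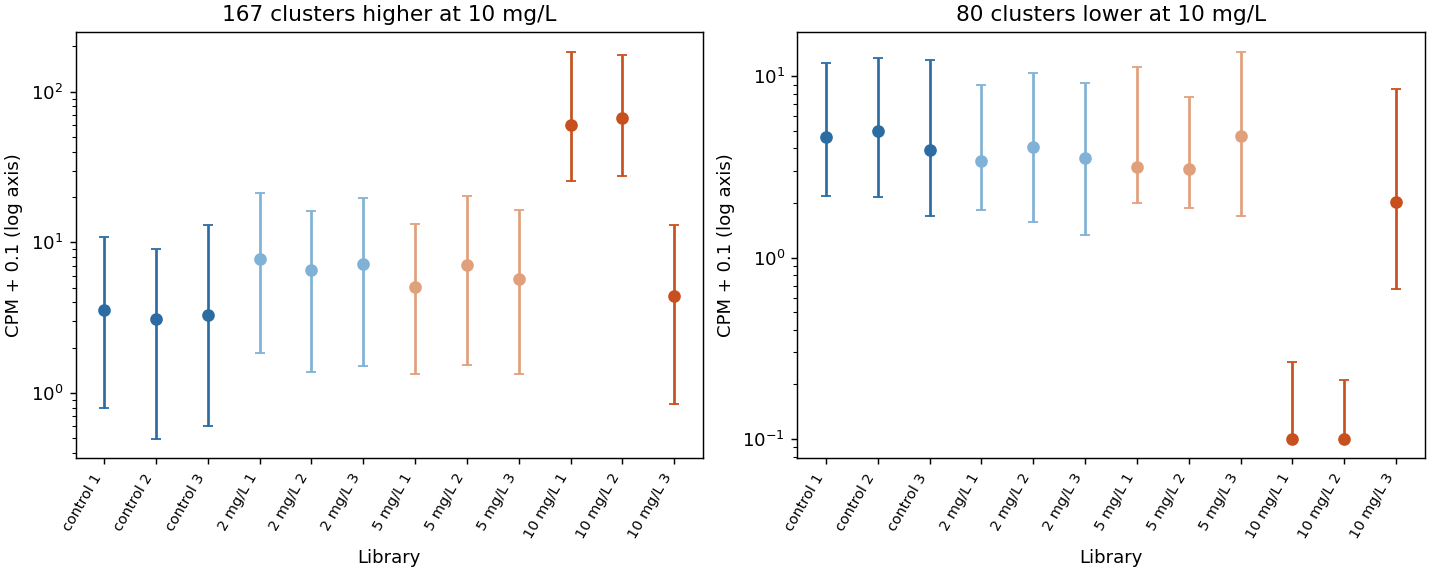
Median and quartiles (points and bars) of CPM + 0.1 (log axis) in each of the 12 libraries for the 167 clusters that rose and the 80 that fell when 10 mg/L replicate 3 was left out of the fit. Replicate 3, at a median of 4.30 CPM on the left, lies beside the controls and far from the 60.4 and 67.3 CPM of the other 10 mg/L libraries; on the right, at 1.93 CPM, it lies between them and the controls.

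Some of these clusters were among the most abundant in replicates 1 and 2, and the following, without identifiers, were chosen after their values were seen. The largest fold among clusters at 1000 CPM or more was of a sequence of 4129 bases with 13100, 10491 and 11.03 CPM at 10 mg/L, or 236869, 186458 and 149 counts, against 0.0435, 0.169 and 0.113 CPM in the controls, or 1, 3 and 2 counts. It had at most 2.16 CPM at the lower doses. Its log2 fold change was 16.64 with standard error 1.93 without replicate 3 (edgeR adjusted p = 0.017), and 16.08 with standard error 2.91 with all libraries (edgeR adjusted p = 0.291). Replicate 3 was above the controls here as well, but by a small part of the change in the others.

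A cluster of 1018 bases had 4324, 3370 and 6.59 CPM at 10 mg/L, against 8.04, 15.6 and 4.67 CPM in the controls, and replicate 3 lay among the controls. A cluster of 1157 bases had 3268, 2741 and 33.8 CPM at 10 mg/L, against 30.4, 19.0 and 27.9 CPM in the controls, and it rose by 6.83 on the log2 scale with standard error 0.92 without replicate 3 (edgeR adjusted p = 0.0253). In 10 of the 167 clusters replicates 1 and 2 had at least 100 CPM and each control under 1 CPM. In these replicate 3 had 0 to 11.03 CPM with a median of 0.555, and in 10 of 10 it was at least 10-fold below both. For these clusters the libraries at 10 mg/L thus did not have like levels.

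Among the clusters that fell without replicate 3, 1 of 1234 bases had 10.2, 13.7 and 17.9 CPM at 10 mg/L, against 62.8, 53.9 and 72.3 CPM in the controls. Here replicate 3 lay below all controls too, and the cluster stood at 29.8, 29.8 and 36.0 CPM at 2 mg/L and 21.0, 17.2 and 13.8 CPM with 5 mg/L, below the controls at each dose. A cluster of 2726 bases had 6.14, 8.83 and 25.4 CPM at 10 mg/L, against 75.6, 128 and 91.6 CPM in the controls, with 51.8 to 93.9 CPM at the lower doses. In both of them all 10 mg/L libraries lay below all controls. What sets replicate 3 apart from the other 10 mg/L libraries was not tested. Its total count lay close to theirs, but with the TMM factor its scaled library size was smaller than either of theirs. The labels give no batch, date or animal.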

How the data were processed

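RNA-seq of 12 hepatopancreas libraries was deposited, 3 for each of 4 cadmium groups, per the labels. The deposited tables give estimated counts per gene cluster, not normalized (58.0% of nonzero values are whole, with no tolerance), and FPKM, scaled by the authors for length and depth, per the file headers. Which assembler, aligner and counting tool made them is not given in the sources used here. Identifiers matched 0 RefSeq genes (assembly FALCON_Pclarkii_2.0).

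Samples were grouped by title. Counts were rounded, and filterByExpr (at least 10 counts, total 15) kept 57151 clusters with 98.6% of counts. After TMM scaling, all 12 libraries entered 1 quasi-likelihood model with a coefficient for each group (edgeR 4.0.16, R 4.3.3), with p-values Benjamini-Hochberg adjusted over all clusters tested and a threshold of 0.05. The common biological coefficient of variation was 1.12. Standard errors were derived from fold changes and F statistics. Floors are 3 counts over a group and cover counting error only. The scripts were tested on simulated data. The files of the other doses were used for the shared spread and as comparison.

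Members, groups of clusters and tests were chosen with earlier results of these data known. Identifiers were named by rule: in each direction the called cluster with the smallest adjusted p at a mean of at least 10 CPM, and the cluster with the widest gap between groups at a mean of at least 100 CPM with counts in all 6 libraries. Gene lists and cell type markers could not be tested without gene names. Alternatives were DESeq2 1.42.0, limma 3.58.1 (voom, and log2(FPKM + 1)), other scalings, filters and pseudocounts, thinning, a test of sizes over a log2 fold change of 1, the replicate block, the compared libraries alone and each library left out.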

Additional observations from a re-analysis of the deposited data

How the results depend on the processing

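The 4 calls were also made with DESeq2 size factors, a test of sizes over a log2 fold change of 1, no low-count filter and a minimum of 5 CPM in 3 libraries, and 3 of them with library size alone. DESeq2 called 3241 clusters, limma on log2(FPKM + 1) 58, limma-voom 0 (6806 at an unadjusted p under 0.05) and edgeR on the 6 libraries alone 0 (3527). Leaving out each library in turn gave 0 to 247 calls.

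With the replicate number as a block edgeR called 0 clusters in 12 libraries (4932 at an unadjusted p under 0.05) and 0 in the 6 compared (1992). Same-numbered libraries deviated from their group means with correlations of 0.053, -0.0055 and -0.0142 for replicates 1, 2 and 3. For 2 of 6 libraries the best match had the same number. No pairing by number was thus seen, but so few libraries cannot show that the samples were unpaired, and the labels do not say.

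Clusters without overlap numbered 3141 of 15447 with at least 5 CPM in 3 libraries, 19044 of 164856 without a filter, 2561 with the nearest values 2-fold apart and 13678 to 20019 with 1 library left out. They numbered 8904 to 9531 with other scalings, thinning or FPKM. The median size of the log2 fold change, 0.83, was 0.52 and 0.39 as a difference of mean log2(CPM + 0.5) and log2(CPM + 1), 0.64 with at least 5 CPM, 1.19 without a filter, 0.76 without clusters at 0 in a group and 0.86 to 1.02 with 1 library left out. The share of clusters in which 10 mg/L replicate 3 followed replicates 1 and 2, 48.1%, was 45.2% with library size alone, 52.5% where the pair was at least 2-fold beyond the controls and 54.5% to 56.5% with 1 control left out. The 247 calls without that replicate became 6472 with DESeq2, 3197 with limma-voom (2593 higher, 604 lower, 239 of the 247 among them), 125 against a log2 fold change of 1, 461 with at least 5 CPM, 0 with the 5 libraries alone and 0 to 33 with 1 control left out as well. With the clusters kept by the filter on 12 libraries there were 316. The sign of the change stayed the same for the 4 named clusters in 23 settings each. This is no support for them, since their groups did not overlap to begin with and such settings could hardly turn the sign. Fits with fewer libraries or another filter test other numbers of clusters, and the cause of the other differences was not tested.

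With a common coefficient of variation of 1.12 and 3 libraries a group, an effect that misses the threshold is not shown to be absent. Changes of clusters under 1 CPM rest on few counts. With 1 library left out of a group, the others are assumed to vary like the other groups.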

Other observations

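The abundance classes held different parts of the libraries' counts, given as values with no test. Clusters at 1000 CPM or more held 35.9%, 36.3% and 47.1% of counts at 10 mg/L, against 43.8%, 48.0% and 45.0% in the controls. Clusters at 10 to 100 CPM held 21.4%, 20.6% and 14.9% at 10 mg/L, against 17.6%, 14.97% and 16.1% in the controls. Clusters at 1 to 10 CPM held 9.54%, 8.70% and 5.84% at 10 mg/L, against 8.26%, 6.55% and 6.94% in the controls. In these 3 classes 10 mg/L replicates 1 and 2 lay on 1 side of all controls and replicate 3 did not lie with them. The other 2 classes did not show this. Clusters at 100 to 1000 CPM held 29.5%, 30.6% and 30.3% at 10 mg/L, against 27.3%, 28.1% and 29.6% in the controls, and clusters under 1 CPM held 1.55%, 1.45% and 0.970% at 10 mg/L, against 1.55%, 1.18% and 1.18% in the controls.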
